A study of Homo sapiens with 6 samples.

Results

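The transcription factor MYC works inside a network of related proteins, and the expression of 10 of its genes was examined in control and PELP1-KD breast cancer cells. The genes were chosen by symbol: MYC, its partner MAX, the antagonists MXD1, MXD3, MXD4, MXI1 and MNT, the large MAX partner MGA, and MLX with its partner MLXIP, also called MondoA. All 10 were among the 23228 gene symbols counted and among the 12796 genes with enough reads to be tested. RNA was sequenced from MDA-MB-231, an established human cell line from a triple negative breast cancer (TNBC). The 3 control libraries came from cells carrying a non-targeted shRNA, and the 3 PELP1-KD libraries from cells carrying an shRNA against PELP1, a coregulator of several transcription factors. In both groups the shRNA was introduced with lentiviral particles, stable cells were kept by puromycin selection, and growth was in RPMI medium with serum. The methods name a single PELP1 shRNA, so effects of that sequence on other genes cannot be told apart from loss of PELP1. The replicates are numbered but not said to come from separate infections or cultures, so the p-values measure only the spread between these libraries, which may be technical.

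MYC binds DNA only as a dimer with MAX, through a basic helix-loop-helix leucine zipper, and prefers the sequence CACGTG, a form of the E-box. The MXD proteins and MNT also pair with MAX, bind the same E-boxes and recruit SIN3 and histone deacetylases, so that they repress genes which MYC activates. MLX stands beside MAX as the dimer partner of MondoA and of its relative ChREBP, which respond to glucose, and it also pairs with MXD1, MXD4 and MNT. MYC is frequently amplified or highly expressed in TNBC, where it drives growth, metabolism and ribosome production.

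To set the members beside the DNA sequence that their proteins recognize, the E-box CACGTG was searched in the RefSeq promoter windows, which run from 250 bases before a transcription start to 50 bases after it. The motif reads the same on both strands, and no other motif was searched. RefSeq windows were given for 9 members, which had 14 windows, and MLX, MNT and MXD4 held the motif in 1 window each. MYC, which also rose in PELP1-KD cells, had no window and was not searched. Among all genes, 7.26% of 35116 windows held it. In the windows the E-box began 50 bases before the start in MLX, 193 bases before it in MNT and 238 bases before it in MXD4. Shown here in full, because these genes rose in PELP1-KD cells, are the window of MLX (chr17:42566850-42567149, plus strand), that of MLXIP (chr12:122078506-122078805, plus strand) and the most upstream of 3 windows of MXI1 (chr10:110207355-110207654, plus strand). The stretches around the E-box of MNT (chr17:2401218-2401283, minus strand) and MXD4 (chr4:2262312-2262359, minus strand) stand beside them for comparison. All coordinates are of RefSeq on GRCh38.p14, all sequences run 5′ to 3′, and capitals mark the E-box.
MLX: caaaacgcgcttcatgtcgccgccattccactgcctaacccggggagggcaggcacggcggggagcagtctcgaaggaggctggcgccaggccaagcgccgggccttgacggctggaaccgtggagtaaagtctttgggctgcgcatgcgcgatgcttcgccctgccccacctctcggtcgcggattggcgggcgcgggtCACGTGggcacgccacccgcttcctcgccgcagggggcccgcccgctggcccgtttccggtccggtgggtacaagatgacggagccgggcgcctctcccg
MLXIP: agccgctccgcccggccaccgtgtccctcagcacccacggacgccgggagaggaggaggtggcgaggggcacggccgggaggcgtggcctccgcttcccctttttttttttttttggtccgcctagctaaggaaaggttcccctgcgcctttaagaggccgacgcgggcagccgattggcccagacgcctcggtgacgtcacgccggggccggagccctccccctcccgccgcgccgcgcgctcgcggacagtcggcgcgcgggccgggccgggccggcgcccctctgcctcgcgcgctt
MXI1: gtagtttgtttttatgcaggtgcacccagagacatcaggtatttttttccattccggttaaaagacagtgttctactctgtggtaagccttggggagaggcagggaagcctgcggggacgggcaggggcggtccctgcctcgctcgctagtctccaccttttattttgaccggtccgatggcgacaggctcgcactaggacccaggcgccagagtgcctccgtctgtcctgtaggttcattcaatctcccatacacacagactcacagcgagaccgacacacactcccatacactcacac
MNT: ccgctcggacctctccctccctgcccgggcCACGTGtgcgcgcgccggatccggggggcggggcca
MXD4: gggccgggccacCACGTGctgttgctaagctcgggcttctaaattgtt
The windows of MLXIP and MXI1 hold no capitals because those letters do not occur in them. A match is a string of letters and not a measured binding site.

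Between 17304864 and 23132102 reads per library were counted on genes, and levels are given as CPM, the reads of a gene scaled to the size of its library. The control libraries held PELP1 at 57.8 CPM ± 2.14 and the PELP1-KD libraries at 29.6 CPM ± 0.876 (mean ± SD, n = 3 each), with no overlap (log2FC -0.97, SE 0.055, adjusted p = 1.48e-11). Here log2FC is the log2 fold change of PELP1-KD over control, and adjusted p is that of edgeR's quasi-likelihood test after adjustment by Benjamini-Hochberg over all tested genes. Calls at an adjusted p below 0.05 were frequent, with 24.2% of tested genes lower and 22.7% higher in PELP1-KD cells, 46.9% in all. Of the basal and mesenchymal markers, VIM was at 2087 to 2291 CPM in control and 1909 to 1930 CPM in PELP1-KD libraries. AXL was at 1424 to 1464 and 1289 to 1343 CPM. Among luminal and receptor genes, ESR1 was at or below 0.0563 CPM, PGR at or below 0.118, CDH1 at or below 0.225 and FOXA1 at or below 1.14. Others of these genes were detected, with ERBB2 at 108.9 to 127.8 CPM, GATA3 at 6.42 to 8.11 and EPCAM at 8.62 to 11.2. The blood cell gene PTPRC was at 0 in every library.

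Of the 10 members, 4 rose in PELP1-KD cells (MYC, MXI1, MLX and MLXIP), 0 fell and 6 did not pass the test. The share called is near the 46.9% of all tested genes, so the count alone is not a result about the network. No member had a log2FC beyond 1, and 0 members were lower at an unadjusted p below 0.05 in edgeR or called lower by DESeq2 or limma voom. The groups did not overlap in those same 4 members, beside 55.0% of all tested genes. The median log2FC over the 10 members was 0.03, beside 0.0014 over all tested genes. As these are bulk libraries, fewer cells expressing a gene and less RNA per cell cannot be told apart.

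**Figure D1:**
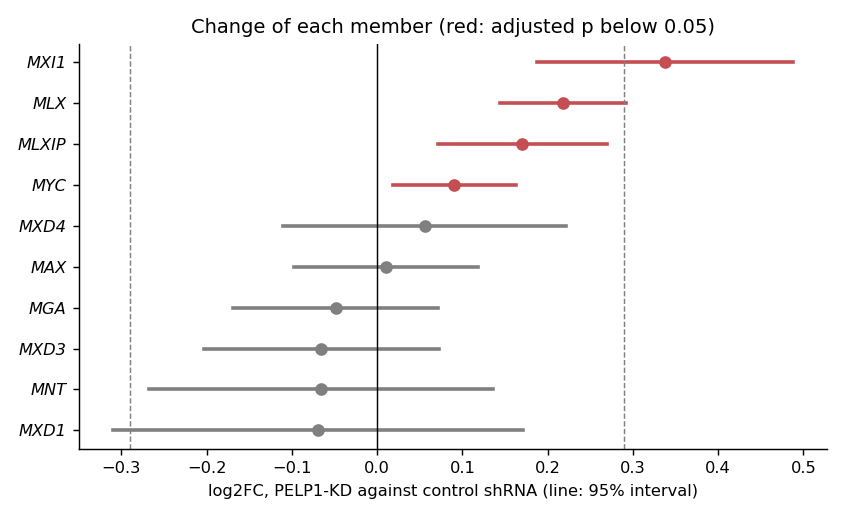
The log2FC of PELP1-KD over control is plotted for each of the 10 members, with points for the estimate and bars for the 95% interval and dashed lines at the median size of log2FC of the called genes, 0.29. The intervals of MYC, MXI1, MLX and MLXIP lie above 0, and the estimate of MXI1 alone lies beyond the dashed line.

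To order the levels of different genes, reads were also expressed per kilobase of exon (RPKM, here on the scaled library sizes). MYC was the most abundant member at 69.3 RPKM ± 1.43 (SD, n = 3) in control cells, followed by MLX at 34.99 RPKM ± 0.619 and MAX at 14.1 RPKM ± 0.916. Below these came MXD3 at 4.99 RPKM ± 0.111, MXI1 at 4.53 RPKM ± 0.237, MLXIP at 4.07 RPKM ± 0.0721 and MXD4 at 3.35 RPKM ± 0.272. The lowest levels were those of MGA at 2.60 RPKM ± 0.164, MNT at 1.92 RPKM ± 0.259 and MXD1 at 1.23 RPKM ± 0.132. No neighbours in this order overlapped among the control libraries. In PELP1-KD cells MXI1, at 5.72 RPKM ± 0.405 (SD, n = 3), stood above MXD3, at 4.77 RPKM ± 0.267, and the libraries of MXD3 and MLXIP overlapped. The order depends on the length used. With the longest transcript in place of all exons, 6 of the 10 members kept their rank in control cells. MXI1 changed places with MLXIP there, and MGA with MNT. In PELP1-KD cells that length put MXD3, at 10.79 RPKM, above MXI1, at 7.591 RPKM. Thus MYC, MLX and MAX led the order in both groups and with both lengths, and MXD1 came last.

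**Figure D2:**
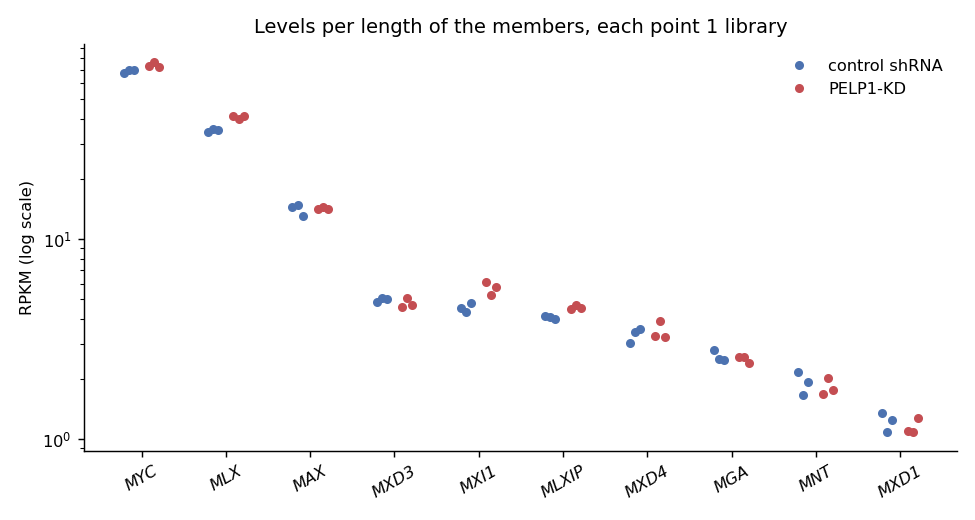
RPKM of each member is plotted on a log axis, with a point for each of the 3 control (blue) and 3 PELP1-KD (red) libraries. MYC, MLX and MAX lie above the other members in every library, and MXD1 and MNT lie lowest.

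MYC, an activating member of the network, was 6.48% higher in PELP1-KD cells. Its level was 203.0, 210.5 and 210.4 CPM in control libraries 1, 2 and 3, and 219, 229 and 216 CPM in PELP1-KD libraries 1, 2 and 3. Every PELP1-KD library was above every control library, although the gap between the nearest libraries was smaller than the range within either group. The means were 208 CPM ± 4.29 and 222 CPM ± 6.64 (SD, n = 3 each), with a log2FC of 0.09 (SE 0.035, 95% interval 0.018 to 0.163, adjusted p = 0.0377). Only 60 of the 6007 called genes, 0.999%, had a smaller log2FC in size. The call did not hold in DESeq2 (adjusted p = 0.0603), and it was lost without PELP1-KD replicate 2 (log2FC 0.07, adjusted p = 0.135), PELP1-KD replicate 1 (0.0605) or control replicate 1 (0.0725), 2 (0.0725) or 3 (0.0602). It was the smallest of the 4 called changes.

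MAX, the obligate dimer partner of MYC and a partner of the antagonists, showed no detectable difference. It was at 64.3, 65.4 and 57.9 CPM in the control libraries and 62.3, 64.2 and 62.6 CPM in the PELP1-KD libraries. The PELP1-KD libraries lay within the range of the controls, of which replicate 3 was the lowest. The log2FC was 0.01 (95% interval -0.098 to 0.118, adjusted p = 0.889), which leaves room for a change of that size in either direction.

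**Figure D3:**
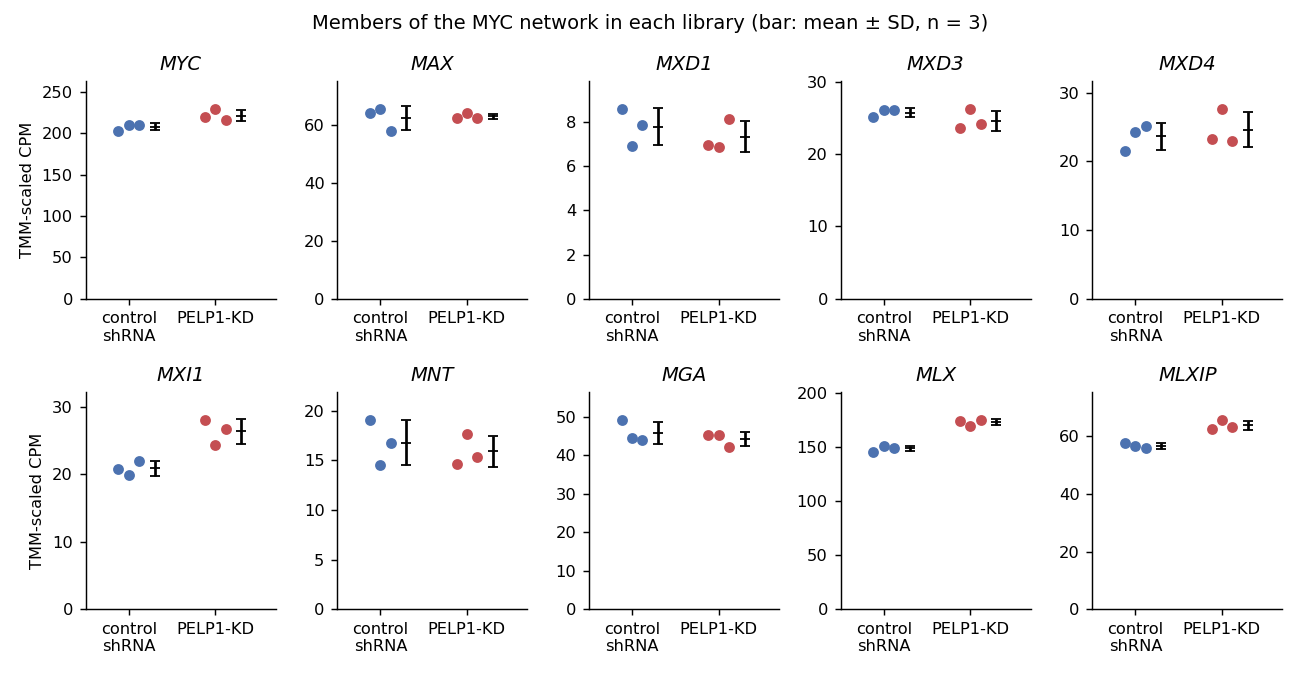
CPM of each member is plotted in its own panel, from 0, with a point for each control (blue) and PELP1-KD (red) library and black bars for the mean and SD of the group. In the panels of MYC, MXI1, MLX and MLXIP all PELP1-KD points lie above all control points, and in the other 6 panels the groups overlap.

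Among the antagonists, MXI1 was higher in PELP1-KD cells, and the others did not pass the test. MXI1, which replaces MYC on MAX and recruits SIN3, was at 20.8, 19.9 and 22.0 CPM in the control libraries and at 28.0, 24.3 and 26.7 CPM in the PELP1-KD libraries. The groups did not overlap, and the lowest PELP1-KD library was replicate 2. MXI1 rose by 26.4%, from 20.9 CPM ± 1.09 to 26.3 CPM ± 1.87 (SD, n = 3 each), with a log2FC of 0.34 (SE 0.072, 95% interval 0.187 to 0.488, adjusted p = 0.00065). This was the largest log2FC among the 10 members, and 58.4% of the called genes had a smaller one in size.

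MXD1, the founding MXD protein, which appears as many cells differentiate, was at 8.57, 6.91 and 7.89 CPM in the control libraries and 6.98, 6.89 and 8.16 CPM in the PELP1-KD libraries. The groups overlapped, and with 136 to 192 reads per library MXD1 was the least deeply counted member (log2FC -0.07, 95% interval -0.310 to 0.171, adjusted p = 0.647). MXD3, an MXD protein that has been linked to dividing cells, was at 25.1, 26.1 and 26.0 CPM in the control libraries and 23.6, 26.2 and 24.1 CPM in the PELP1-KD libraries (log2FC -0.07, 95% interval -0.203 to 0.072, adjusted p = 0.434). Its highest library and its lowest library were both PELP1-KD. MXD4, also a SIN3-recruiting repressor, was at 21.5, 24.3 and 25.1 CPM in the control libraries and 23.3, 27.6 and 23.0 CPM in the PELP1-KD libraries, again with overlap (log2FC 0.06, 95% interval -0.111 to 0.222, adjusted p = 0.589).

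MNT, the most widely expressed of the antagonists across tissues, was at 19.0, 14.5 and 16.8 CPM in the control libraries and 14.6, 17.7 and 15.4 CPM in the PELP1-KD libraries. The control libraries enclosed the PELP1-KD libraries (log2FC -0.07, 95% interval -0.268 to 0.136, adjusted p = 0.598). MGA, a very large protein that pairs with MAX and anchors a variant Polycomb complex, was at 49.1, 44.5 and 43.9 CPM in the control libraries and 45.3, 45.3 and 42.2 CPM in the PELP1-KD libraries. Control replicate 1 was the highest and PELP1-KD replicate 3 the lowest, and the groups overlapped (log2FC -0.05, 95% interval -0.169 to 0.072, adjusted p = 0.51). The intervals of MXD1, MXD3, MXD4, MNT and MGA all include 0, so a difference in either direction was not detectable at this depth and spread.

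MLX and MLXIP, which form a dimer with each other, were both higher in PELP1-KD cells. MLX was at 146, 151 and 149.8 CPM in the control libraries and at 175, 170.0 and 175 CPM in the PELP1-KD libraries. The groups stood well apart, with a spread of a few CPM within each. MLX rose by 16.3%, from 149.0 CPM ± 2.62 to 173 CPM ± 2.90 (SD, n = 3 each), with a log2FC of 0.22 (SE 0.036, 95% interval 0.144 to 0.292, adjusted p = 4.12e-05), and 32.1% of called genes had a smaller log2FC in size.

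MLXIP encodes MondoA, the activating partner that carries the glucose response. It was at 57.6, 56.5 and 55.6 CPM in the control libraries and at 62.4, 65.4 and 63.1 CPM in the PELP1-KD libraries. These groups did not overlap either. MLXIP rose by 12.5%, from 56.6 CPM ± 1.01 to 63.6 CPM ± 1.58 (SD, n = 3 each), with a log2FC of 0.17 (SE 0.048, 95% interval 0.071 to 0.269, adjusted p = 0.00592). With MXI1 and MLX it stayed called when any library was left out.

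Neighbouring genes can affect the counts of some members, and the strand setting and annotation of the counting are not given in the sources used here. Reads classed as ambiguous between genes, 192568 to 270446 per library, were counted on no gene, so a member can lose reads where it overlaps a neighbour. By GENCODE, 22.5% of the exon bases of MXD3 overlap PRELID1 on the opposite strand and 18% overlap RAB24 on the same strand. RAB24 rose (log2FC 0.20, adjusted p = 0.0233), and PRELID1 had a log2FC of 0.09 (adjusted p = 0.125). For MLX, 18.1% of exon bases overlap PSMC3IP on the opposite strand, whose log2FC was 0.02 (adjusted p = 0.819). For MXD1, 3.73% overlap SNRNP27 on the same strand, which fell (log2FC -0.44, adjusted p = 9.21e-07). The part of these neighbours in the values of MXD3, MLX and MXD1 was not tested. MYC and MLXIP have no such overlap, and the other 5 members overlap other genes for 1.13% to 12.2% of their exon bases.

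The question of balance between MYC and its partners and antagonists was put to ratios within each library, which need no scaling between libraries. The log2 ratio of MYC counts to MXI1 counts was 3.29, 3.41 and 3.26 in the control libraries and 2.97, 3.23 and 3.02 in the PELP1-KD libraries. All PELP1-KD libraries lay below the controls, a difference of -0.24 (two-sided exact permutation test, p = 0.1, adjusted p = 0.18 over 9 ratios). The log2 ratio of MYC to MLX moved the same way, from 0.474, 0.477 and 0.490 to 0.327, 0.429 and 0.303, a difference of -0.13 with the same exact p. That of MYC to MLXIP went from 1.82, 1.90 and 1.92 to 1.81, 1.81 and 1.78, a difference of -0.08 in which control replicate 1 lay just above the nearest PELP1-KD library. The ratio to MXD3 lay higher in PELP1-KD cells, at 3.22, 3.13 and 3.17 against 3.02, 3.01 and 3.02, a difference of 0.16, and the ratio to MGA also did not overlap (difference 0.14). Ratios to MAX, MXD1, MXD4 and MNT overlapped, with differences of 0.08, 0.18, 0.03 and 0.17. With 3 libraries against 3, an exact p cannot go below 0.1, so none of the 9 ratios could pass the threshold. The 5 ratios without overlap are a share near the 56.0% of 12783 other tested genes whose ratio to MYC did not overlap between the groups.

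**Figure D4:**
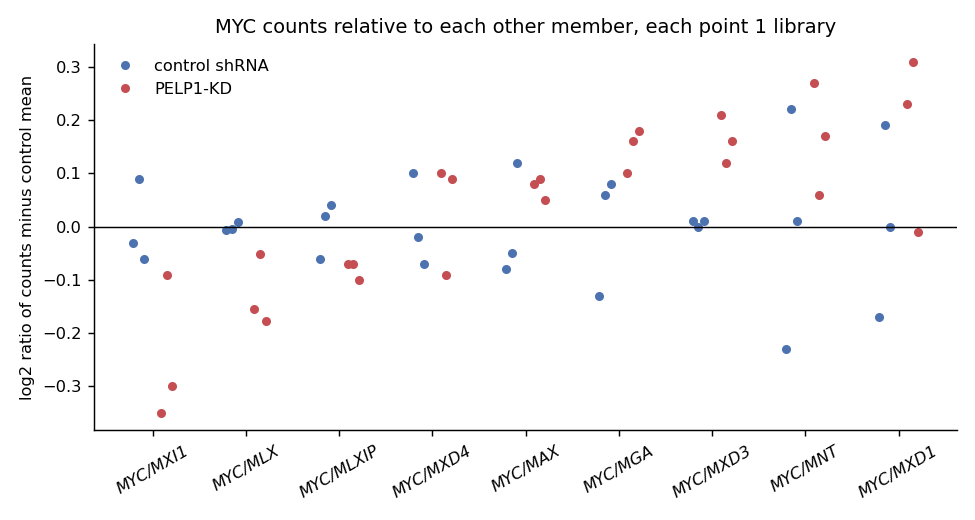
The log2 ratio of MYC counts to the counts of each other member, minus the mean of that ratio in the control libraries, is plotted with a point for each control (blue) and PELP1-KD (red) library. Ratios to MXI1, MLX and MLXIP lie lower in the PELP1-KD libraries, those to MXD3 and MGA lie higher, and the other 4 overlap.

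Per length, the 5 antagonists together reached 15.9, 15.6 and 16.6 RPKM in the control libraries and 16.7, 17.4 and 16.8 RPKM in the PELP1-KD libraries. With all exons as length, their sum was higher in each PELP1-KD library, at 17 RPKM ± 0.36 beside 16 RPKM ± 0.50 (SD, n = 3 each). The exact permutation test gave p = 0.1 (two-sided, the smallest possible). MXI1 made up 28.3%, 27.7% and 28.9% of that sum in the control libraries and 36.4%, 30.4% and 34.5% in the PELP1-KD libraries. By the longest transcript MXD3 weighed more, at a mean of 11.29 RPKM in control and 10.79 RPKM in PELP1-KD cells. MXI1 then stood at 6.015 and 7.591 RPKM. The sum and the share of MXI1 thus depend on the length, and the separation of the sums was not tested with the longest transcript. MYC divided by the sum was 4.24, 4.51 and 4.24 in control cells and 4.37, 4.39 and 4.30 in PELP1-KD cells. These ratios overlapped and differed by 0.0244 on average (exact permutation test, p = 0.8), with the sign reversed without control replicate 1 (-0.0181) or 3 (-0.022). The difference was 0.0815 (p = 0.3) with the longest transcript as length and 0.0672 (p = 0.5) with MGA added to the sum, by the same exact test. MYC divided by MAX was 4.93 ± 0.38 in control and 5.19 ± 0.085 in PELP1-KD cells (SD, n = 3 each, exact permutation test, p = 0.4). MLX divided by MAX was 2.49 ± 0.18 and 2.86 ± 0.091 (SD, n = 3 each, exact permutation test, p = 0.1), and MLX divided by MLXIP 8.61 ± 0.28 and 8.90 ± 0.36 (exact permutation test, p = 0.3).

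The 8 lists, drawn from general knowledge, placed the members beside their relatives, partners and targets. Scaling by library totals alone moved the median log2FC of all genes to 0.05 and the calls from 3103 lower and 2904 higher to 2418 lower and 3817 higher, 18.9% and 29.8% of all genes, so the list counts are given under both scalings. The medians of the lists moved with that of all genes, and relative to it each list median was the same under both scalings in its first 2 decimals. Of 10 tested relatives that also read E-boxes, 3 fell and 3 rose (2 and 3 with library totals), shares of 30% each beside 24.2% and 22.7% of all genes, and the median log2FC minus that of all genes was -0.014. MLXIPL, which encodes ChREBP, rose from 0.429 CPM ± 0.106 to 1.12 CPM ± 0.313 (SD, n = 3 each; log2FC 1.39, adjusted p = 0.00234), a low level in both groups. MLXIPL passed the filter on reads only through the PELP1-KD libraries, so its rise is not set beside those of MLX and MLXIP. With at least 10 counts required in every library, 2 relatives rose. TFEB, a regulator of lysosomal genes, rose (log2FC 0.76, adjusted p = 3.13e-05), as did MITF (0.44, 0.000285). SREBF1, the sterol and fatty acid regulator, fell (log2FC -0.53, adjusted p = 2.44e-07), as did TFAP4 (-0.33, 0.00107) and SREBF2 (-0.14, 0.0115). Of the MYC paralogs, MYCN had 0 counts in every library, and MYCL1 was near 0.8 CPM in both groups (log2FC -0.13, adjusted p = 0.764).

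Of 24 tested MYC cofactors, 6 fell and 3 rose (6 and 5 with library totals), shares of 25% and 12.5% beside 24.2% and 22.7% of all genes, and the median log2FC was -0.03. All 6 that fell are subunits of the histone acetylase complex of KAT5 (TIP60), which MYC recruits. Among them, YEATS4, EPC1 and EPC2 fell with log2FC of -0.34, -0.33 and -0.28 (adjusted p = 7.76e-06, 0.00169 and 0.00255). The others were ACTL6A, KAT5 and BRD8, with log2FC of -0.26, -0.24 and -0.18 (adjusted p = 4.04e-06, 0.000255 and 0.000576). Much of the list is made up of this complex, and not all of its subunits fell. Its subunits TRRAP, EP400, RUVBL1, RUVBL2, DMAP1 and C20orf20 did not pass the test (log2FC from -0.08 to 0.05, adjusted p = 0.149 to 0.802). MORF4L1, of the same complex and with 6 named pseudogenes, which leaves its count uncertain, rose (log2FC 0.15, adjusted p = 0.00409), as did BIN1, a MYC-binding adaptor (0.24, 0.00369), and CHD8 (0.14, 0.00939).

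Of 24 genes that set the stability of the MYC protein, 8 fell and 5 rose (5 and 5 with library totals), shares of 33.3% and 20.8% beside 24.2% and 22.7% of all genes. The median log2FC was -0.05. The count that fell was also 5 without control replicate 2 or PELP1-KD replicate 1, and in DESeq2. SET, an inhibitor of the phosphatase that marks MYC for decay, fell from 527 CPM ± 6.29 to 375 CPM ± 9.67 (SD, n = 3 each; log2FC -0.49, adjusted p = 3.24e-11). The count of SET is uncertain, as GENCODE names 19 pseudogenes of it and reads with several alignments were placed on no gene. KIAA1524 (CIP2A), which inhibits the same phosphatase, fell (log2FC -0.21, adjusted p = 5.55e-05), and so did the deubiquitinase USP22 (-0.23, 5.67e-06). PIM1 and PIM2, kinases that stabilize MYC, rose with log2FC of 0.23 and 0.24 (adjusted p = 0.000694 and 0.00996), as did the ubiquitin ligase subunit FBXO32 (0.27, 0.00236).

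Of 20 genes of the SIN3 and histone deacetylase corepressor, which the MXD proteins recruit, 6 fell and 3 rose (3 and 3 with library totals), shares of 30% and 15% beside 24.2% and 22.7% of all genes. The median log2FC was -0.07. SAP30L, BRMS1L and RBBP4 fell (log2FC -0.34, -0.29 and -0.23, adjusted p = 0.000368, 0.000567 and 0.000295). HDAC1 rose (log2FC 0.12, adjusted p = 0.00786), as did SIN3B, whose groups overlapped (log2FC 0.13, adjusted p = 0.0402). The scaffold SIN3A did not pass (log2FC -0.08, adjusted p = 0.159). Of 14 partners of MGA in its variant Polycomb complex, 7 fell and 3 rose (6 and 3 with library totals), shares of 50% and 21.4% beside 24.2% and 22.7% of all genes. Their median log2FC was -0.12, beside the log2FC of -0.05 of MGA itself. Without control replicate 2, 1 partner rose. YAF2, PCGF6 and CBX3 fell (log2FC -0.42, -0.42 and -0.30, adjusted p = 0.000676, 5.73e-06 and 4.53e-05), and RING1, TFDP2 and HDAC1 rose (0.27, 0.14 and 0.12, adjusted p = 0.000263, 0.0258 and 0.00786). CBX3 and RBBP4, with 9 and 6 named pseudogenes, are uncertain in the same way as SET.

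Of 64 tested genes that MYC is known to activate, 24 fell and 9 rose, shares of 37.5% and 14.1% beside 24.2% and 22.7% of all genes. With library totals 18 fell and 16 rose, shares of 28.1% and 25% beside 18.9% and 29.8% of all genes. The median log2FC was -0.03, and with library totals it was 0.02, a difference from the median of all genes of -0.036 in both cases. HK2, the first enzyme of glycolysis, fell from 84.4 CPM ± 1.90 to 62.4 CPM ± 0.912 (SD, n = 3 each; log2FC -0.44, adjusted p = 9.95e-08). The amino acid transporter SLC7A5 and the guanine nucleotide enzyme IMPDH1 fell as well (log2FC -0.42 and -0.41, adjusted p = 2.74e-10 and 3.06e-07). IMPDH1 has 7 named pseudogenes, which leaves its count uncertain. E2F1 and E2F2, which drive entry into S phase, rose (log2FC 0.37 and 0.26, adjusted p = 7.96e-08 and 0.00711). CCND2 was not tested, with 7 to 16 reads in control libraries and 0 to 2 in PELP1-KD libraries, and EIF4A1 had 0 counts in every library.

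Of 17 tested genes that MYC is known to repress, 5 fell and 5 rose under both scalings, shares of 29.4% each beside 24.2% and 22.7% of all genes. The median log2FC was 0.02, and 0.07 with library totals. The cell cycle inhibitor CDKN1A rose from 67.7 CPM ± 3.25 to 109.7 CPM ± 3.63 (SD, n = 3 each; log2FC 0.69, adjusted p = 1.78e-10). The matrix genes COL1A1 and THBS1 rose by more, with log2FC of 1.61 and 1.03 (adjusted p = 3.23e-10 and 1.05e-17). KLF4, TGFBR2 and KLF6 fell, with log2FC of -0.49, -0.38 and -0.34 (adjusted p = 0.000288, 7.38e-08 and 6.66e-08).

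Of 9 tested targets of MondoA and ChREBP, which bind DNA together with MLX, 5 fell and 1 rose (4 and 2 with library totals), shares of 55.6% and 11.1% beside 24.2% and 22.7% of all genes. The median log2FC was -0.13, and 2 rose without control replicate 1. ARRDC4, a classical MondoA target, fell from 3.60 CPM ± 0.301 to 2.22 CPM ± 0.367 (SD, n = 3 each; log2FC -0.68, adjusted p = 0.00251). TXNIP, the best known MondoA target, was at 231 CPM in control and 219 CPM in PELP1-KD cells and did not pass the test, although its groups did not overlap (log2FC -0.08, adjusted p = 0.0599). ELOVL6, which lengthens fatty acids, fell (log2FC -0.44, adjusted p = 9.75e-08), with HK2 as given above. PFKFB3, an activator of glycolysis, rose (log2FC 0.39, adjusted p = 1.07e-07). The list is short and shares HK2 and TXNIP with the MYC lists.

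**Figure D5:**
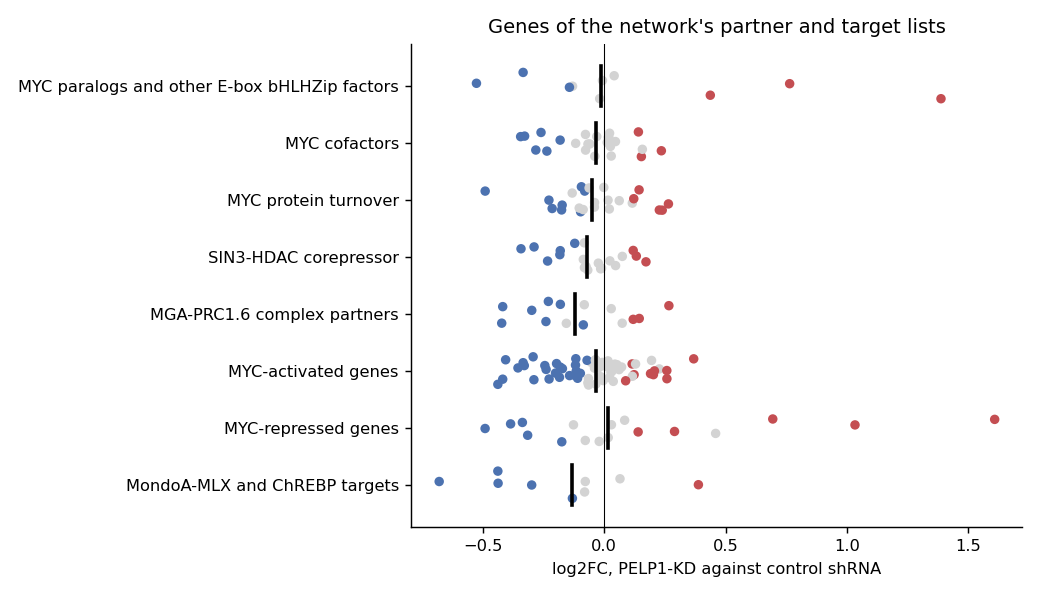
The log2FC of every tested gene is plotted for each of the 8 lists, in red if higher and in blue if lower at an adjusted p below 0.05, in grey if not past it, with a black bar for the median. Medians lie between -0.13 for targets of MondoA and ChREBP and 0.02 for MYC-repressed genes, and each list holds genes in both directions.

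Likeness to MYC over the 6 libraries was measured as the root-mean-square difference of log2 CPM after each gene was centred on its mean. Of 12795 genes ranked, COX8A (0.00545), ACTN4 (0.00934) and PPP1CA (0.0105) lay closest to MYC on the log2 scale. MLXIP was the closest other member, at rank 1040 (0.0514), ahead of MLX at rank 2534 (0.0746) and MAX at rank 2582 (0.0755). The farthest members were MXI1 at rank 7301, MNT at rank 7751 and MXD1 at rank 7894. MXD1 and MNT were also the least deeply counted members, at 136 to 192 and 285 to 377 reads per library. Counting noise enters this measure, and its part in these ranks was not tested.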

How the data were processed

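Strand-specific TruSeq mRNA libraries of 3 control and 3 PELP1-KD samples were sequenced as single reads on an Illumina HiSeq. The authors deposited whole-number counts of reads per gene symbol for each library, without normalization. The submitters' processing notes name bcl2fastq, TopHat2, SAMtools, HTSeq and the build hg19, while versions, annotation and the strand setting are not given in the sources used here. Between 41.0% and 41.44% of the counts of a library stood outside the gene rows, and 32.46% to 32.93% stood in the row for several alignments. Whether a read is counted there once or once per alignment is not given, so these may not be shares of reads. These rows were left out, so genes with close copies elsewhere lose reads. A count of 3, taken as the floor, equals 0.127 to 0.177 CPM, which covers counting error only, since reads were not tagged with molecular identifiers and may be copies of a molecule.

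Genes passing filterByExpr (minimum 10) were tested in edgeR 4.0.16 (R 4.3.3), with TMM scaling, the quasi-likelihood test on the group alone, and Benjamini-Hochberg adjustment. The SE of a log2FC is its size divided by the square root of F. RPKM used exon lengths of GENCODE 29 on GRCh38, another build than that of the reads. Ratios were tested by exact permutation in scipy 1.17.1 (Python 3.11.15). The scripts were tested on simulated data. Alternatives were RLE factors, library totals, other filters, the replicate number as a block, DESeq2 1.42.0, limma voom 3.58.1, the longest transcript and leaving out each library.

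The members and lists were chosen with earlier results of these data known. Named genes are the members, PELP1, for each list up to 3 lower and 3 higher called genes without overlap and by size of log2FC, and the 3 genes most like MYC. Some genes that this rule names are not reported here. KAT5, ACTL6A, BRD8, SIN3A, SIN3B, MYCN, MYCL1, TXNIP, CCND2, EIF4A1 and the overlapping neighbours were named after their values were seen. The same holds for TRRAP, EP400, RUVBL1, RUVBL2, DMAP1 and C20orf20.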

Additional observations from a re-analysis of the deposited data

How the results depend on the processing

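MXI1, MLX and MLXIP stayed higher and called under every alternative run, while MYC stayed higher but lost its call in DESeq2 (log2FC 0.091, adjusted p = 0.0603) and in 5 of 6 fits with a library left out (log2FC 0.0672 to 0.1, adjusted p = 0.0602 to 0.135), and kept it without PELP1-KD replicate 3 (0.108, adjusted p = 0.0438). The members called higher then numbered 3 to 4. With a library left out, members that were not called changed sign: MAX ran from -0.0433 (without control replicate 3) to 0.0445, with -0.0018 without PELP1-KD replicate 2; MXD4 from -0.0322 (without PELP1-KD replicate 2) to 0.106, with -0.0051 without control replicate 1; MXD1 from -0.16 to 0.0027, MNT from -0.172 to 0.0308 and MGA from -0.0785 to 0.00013, their upper ends all without control replicate 1. The turnover genes that fell then numbered 5 to 7, the partners of MGA that rose 1 to 3 and the targets of MondoA and ChREBP that rose 1 to 2. The log2 ratio of MYC to MXD4 differed by -0.00395 (without control replicate 3) to 0.0936, and MYC over the summed antagonists by -0.022 (without control replicate 3) to 0.113, with -0.0181 without control replicate 1. With library totals, the log2FC of MGA was 0.00089, 5 cofactors rose, 5 turnover genes fell, 3 corepressor genes fell, 16 MYC-activated genes rose and 2 targets of MondoA and ChREBP rose. In DESeq2, 5 turnover genes fell. By the longest transcript, 6 members kept their rank. The causes were not tested.

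With the replicate number as a replicate block, the log2FC of MYC was 0.0909 (adjusted p = 0.02 in edgeR), 3335 genes were lower and 3140 higher, and 2 targets of MondoA and ChREBP rose; no call among the members changed. Deviations of same-numbered libraries correlated at 0.0388, 0.0653 and -0.0784, and those of differently numbered libraries at -0.121 to 0.0903. No shared effect of the number was seen in these correlations, which cannot show whether same-numbered libraries were prepared together. At 136 to 192 reads per library, MXD1 had the widest interval of the members.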
